A study of Drosophila melanogaster and Drosophila simulans and Drosophila yakuba with 30 samples.

Results

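Dichaete binding in Drosophila pseudoobscura was compared with Dichaete binding in D. yakuba through the interval lists of both species in D. melanogaster coordinates (build dm3). The D. pseudoobscura list held 2020 intervals and the D. yakuba list held 20964, of 98045 intervals in the 6 lists of the series that are in dm3 coordinates at the same significance threshold (adjusted p under 0.05). All intervals of both lists entered the comparison. The question was how far the few intervals called in the more distant species lie where Dichaete was also called in D. yakuba.

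Dichaete is a group B Sox protein, a transcription factor with a high-mobility-group domain that binds the minor groove of DNA and bends it. In the D. melanogaster embryo it acts in segmentation and in the development of the central nervous system, where its expression overlaps that of the related factor SoxNeuro. In DamID a transcription factor is fused to the bacterial enzyme Dam, which methylates adenine in the sequence GATC near the places where the fusion protein binds. The methylated DNA is recovered and sequenced, and the smallest unit of measurement is the fragment between neighbouring GATC sites. Dam alone also methylates accessible chromatin, so each fusion is set against Dam-only embryos.

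Each list rested on 3 Dichaete-Dam libraries and 3 Dam-only libraries of its own species, 12 libraries in all of the 30 in the series, which covers 4 species. The D. pseudoobscura embryos came from the reference strain of D. pseudoobscura pseudoobscura, whose stock was kept at 22.5 °C, and the D. yakuba embryos from strain Cam-115, whose stock was kept at 25 °C. Embryos of both were collected at 25 °C. Embryos of both species were collected whole at 0 to 16 hours of age, so the intervals pool many tissues and stages. Both species carried the same D. melanogaster Dichaete coding sequence fused to Dam, on a piggyBac transgene with UAS sites and an Hsp70 promoter and the eye marker 3xP3-EGFP. The lists therefore compare where the same fusion protein methylated each genome, and not the species' own Dichaete proteins. The libraries within a list had been pooled into 1 set of calls, so there was no spread between replicates to set beside any share. The 95% Wilson intervals given here cover counting error only, and read depth is not part of the lists.

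The lists differed in size before they were compared. The study describes the D. pseudoobscura profiles as noisier and their replicates as less alike than in the other species, which bears on the size of its list and on any share counted over the D. yakuba list. The D. pseudoobscura intervals covered 1.19 Mb with a median length of 472.5 bp, against 30.9 Mb and a median of 944 bp in D. yakuba. Of the D. pseudoobscura intervals 57.1% were made of 1 GATC fragment, against 26.5% in D. yakuba. The largest interval held 26 fragments in D. pseudoobscura and 95 in D. yakuba. Fragments of both translated lists are those of dm3. The DNA of each species was cut at its own GATC sites, so these counts need not be the numbers of fragments measured in that species. The list called on the D. pseudoobscura genome itself held 2951 intervals, so the translated list had 68.5 intervals for every 100 of them. That figure differed between chromosome arms, matched through the Muller elements, the arms that stay together across Drosophila species. It was 51.6 on element A (dm3 X) and 59.7 on element E (3R), against 78.8 on element B (2L), 85.6 on element C (2R) and 86.5 on element D (3L). In D. yakuba it lay between 94.2 and 95.6 on the 4 large autosome arms, and was 82.9 on chromosome 4 and 102 on X. Over the whole D. yakuba list it was 78.9, since 4303 of its 26563 own-genome intervals lay on unplaced sequence (U). In D. pseudoobscura 162 of the 2951 lay on sequence not matched to an element, which takes in unplaced sequence and others. Element F (dm3 chromosome 4) had 0 own-genome intervals matched to it and 22 translated ones, so no figure is given for it. A translated list is a new set of calls on translated reads, so these figures compare list sizes and do not follow single intervals.

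Most D. pseudoobscura intervals lay where D. yakuba also had one, while few D. yakuba intervals had a D. pseudoobscura counterpart. Of the 2020 D. pseudoobscura intervals 1380, or 68.3% (95% Wilson interval 66.3% to 70.3%), shared at least 1 bp with a D. yakuba interval. In the other direction 1187 of 20964 D. yakuba intervals, or 5.66% (5.36% to 5.98%), shared at least 1 bp with a D. pseudoobscura interval. To set both shares against the space the lists fill, the lists were moved against each other along each chromosome by 1 random distance, with the end joined to the start, 10000 times. These shifts keep the lengths and spacing within each list. They gave 34.6% on average and at most 42.6% for D. pseudoobscura, and 3.24% on average and at most 3.87% for D. yakuba. Both observed shares were above all shifts (one-sided circular permutation test, p = 0.0001 for each, the smallest 10000 shifts can give). Counted in base pairs, D. yakuba intervals covered 744859 of the 1188405 bp of the D. pseudoobscura list, or 62.7%, against 25.8% on average after shifting.

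The shifts have a property that limits what they can be used for. Both lists are built from the same dm3 GATC fragments, so an observed overlap takes in whole fragments, while a shifted interval can graze the edge of a neighbour. In made lists that were drawn independently from shared fragments, overlap fell below that of the shifts, and the shortfall grew with fragment length. The observed shares here were above the shifts. A further limit lies in the translation. Both lists can hold intervals only where reads could be translated to dm3, while the shifts move intervals over whole chromosomes. The part of this in the excess over the shifts was not tested. The difference between long and short intervals is given below as a description. How far shared boundaries move the other class comparisons, X against the autosomes included, was not tested on these lists.

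Overlap differed with the number of dm3 fragments in the D. pseudoobscura interval. Of the 1153 intervals of 1 fragment, 661 were overlapped by D. yakuba (57.3%). The share was 79.8% (327 of 410) for 2 fragments and 80.5% (169 of 210) for 3 fragments. It was 90.3% (223 of 247) for 4 or more fragments. The shift averages for the same classes were 33.3%, 34.2%, 36.2% and 40.0%. Intervals of 2 or more fragments were overlapped in 82.9% of cases (719 of 867), 25.6 percentage points above those of 1 fragment, where the shifts gave a difference of 2.99 points on average and 11.9 at most (two-sided circular permutation test, p = 0.0002, the smallest possible; adjusted p = 0.00033 over 5 class comparisons). The intervals without overlap were thus richer in single fragments, at 76.9% against 47.9% of those with overlap. Their lengths were nearly the same, with a median of 468 bp without overlap and 474 bp with it.

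**Figure D1:**
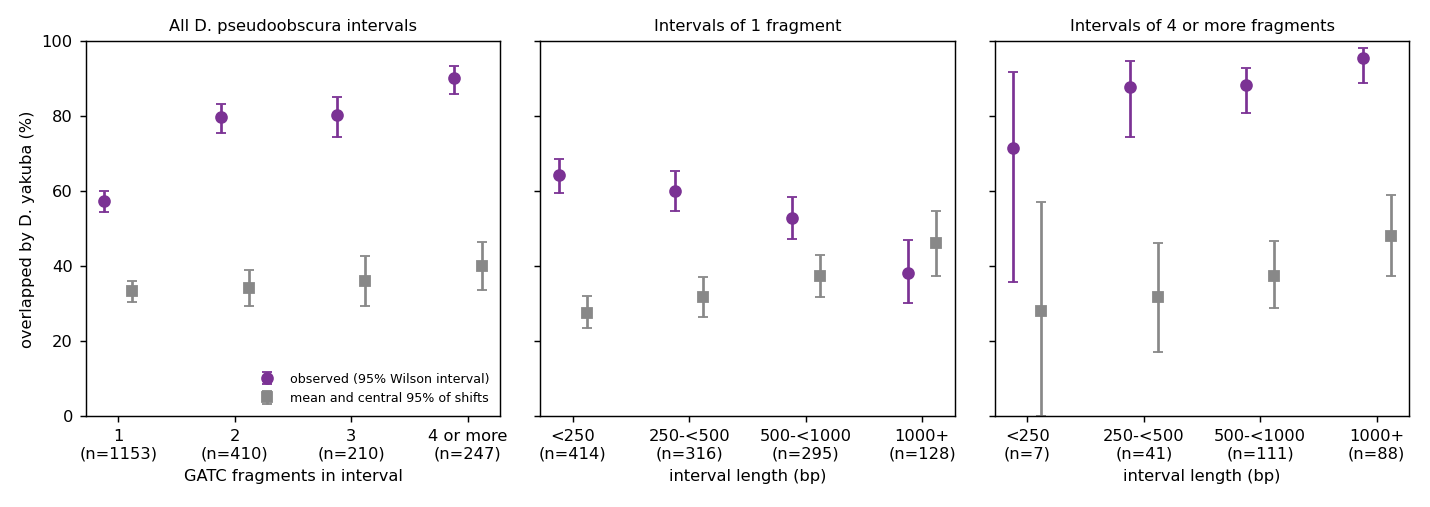
Percentage of D. pseudoobscura intervals sharing at least 1 bp with a D. yakuba interval, by number of GATC fragments (left panel) and by length in bp for intervals of 1 fragment (middle) and of 4 or more (right). Circles are observed shares with 95% Wilson intervals and squares are the mean and central 95% of 10000 circular shifts; the observed share climbs from 57.3% at 1 fragment to 90.3% at 4 or more, and among single fragments it is lowest, at 38.3%, at 1000 bp or more.

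By length alone the observed share was nearly level. It was 66.1% (355 of 537) under 250 bp, 69.5% (364 of 524) from 250 to under 500 bp, 69.9% (451 of 645) from 500 to under 1000 bp and 66.9% (210 of 314) at 1000 bp or more. Fragment number separated the long intervals. Single fragments of 1000 bp or more were overlapped in 38.3% of cases (49 of 128; 30.3% to 46.9%), whereas intervals of 4 or more fragments of that length were overlapped in 95.5% (84 of 88; 88.9% to 98.2%). Among single fragments the share was 64.3% under 250 bp, 60.1% from 250 to under 500 bp and 52.9% from 500 to under 1000 bp. Intervals of 500 bp or more exceeded shorter ones by 1.16 points, against 10.3 points on average after shifting (two-sided circular permutation test, p = 0.0002). Within single fragments, a comparison added after seeing the data, the difference was -14.0 points, against 10.5 after shifting (p = 0.0002 in the same permutation test). Because unrelated lists built on shared fragments also fall below the shifts in this measure, neither p shows that overlap depends on length. The shares of single fragments in the 4 length classes are descriptions for the same reason.

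The shared interval of most fragments on each of the 5 large chromosome arms shows what the overlap looked like at places of many fragments. The one with the highest number lay on 2R at chr2R:9446967-9451499 (dm3; 22 fragments in 4533 bp). It began at the same base as the D. yakuba interval chr2R:9446967-9459220, which held 61 fragments. That D. yakuba interval took in 5 D. pseudoobscura intervals of 44 fragments together, which covered 70.2% of it. The next, on 2L at chr2L:2181417-2183755 (19 fragments), lay whole within a D. yakuba interval of 51 fragments. On 3L, chr3L:9484251-9486130 matched its D. yakuba partner in fragment number, at 17 each, and reached 1880 bp against 1500 bp in D. yakuba. On 3R, chr3R:21849085-21851212 (16 fragments) lay within a D. yakuba interval of 65 fragments. On X, chrX:3031226-3034522 (12 fragments) shared 2157 of its 3297 bp with a D. yakuba interval of 23 fragments. All 5 were also overlapped by Dichaete intervals of D. melanogaster and D. simulans and by SoxNeuro intervals of both. These places are not typical of the 1380 shared intervals, which had a median of 2 fragments. Of the 1380, 47.9% were single fragments and 685 were overlapped by Dichaete intervals of both D. melanogaster and D. simulans. Gene and exon annotation of these places in dm3 was not analysed here.

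A few D. pseudoobscura intervals of many fragments had no D. yakuba counterpart. The list's largest interval, chr2R:10355033-10364872 (26 fragments, 9840 bp), was 904 bp from the nearest D. yakuba interval, which was 1 fragment of 172 bp. D. melanogaster had a Dichaete interval of 6 fragments inside it and D. simulans had none. Likewise chr2L:13522368-13527443 (20 fragments, 5076 bp) lay 1695 bp from the nearest D. yakuba interval, with a D. melanogaster interval of 4 fragments inside it and none of D. simulans. Both of these were longer than any interval called on the D. pseudoobscura genome itself, where the longest had 5030 bp. Another, chr3R:23572625-23573126, held 9 dm3 fragments in 502 bp and was overlapped by none of the other 3 Dichaete lists. It lay 1576 bp from the nearest D. yakuba interval. On X, chrX:662914-663334 (6 fragments) lay 111 bp from a D. yakuba interval and inside a D. melanogaster interval of 42 fragments. On 3L, chr3L:16004910-16006801 (5 fragments) lay 7754 bp from D. yakuba and inside a D. melanogaster interval of 9 fragments. Only 24 of the 247 intervals of 4 or more fragments lacked a D. yakuba overlap.

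Where intervals met, the D. pseudoobscura interval was usually a small piece of a much larger D. yakuba interval. Of the 1380 overlapped D. pseudoobscura intervals, 1373 met a single D. yakuba interval and 7 met 2. In 1237 of the 1373 pairs (90.1%) the D. pseudoobscura interval lay wholly inside its partner, and in 1281 (93.3%) the D. yakuba interval was the longer. The median length in these pairs was 472 bp in D. pseudoobscura and 2856 bp in D. yakuba, and the median number of fragments was 2 in D. pseudoobscura and 10 in D. yakuba. The median ratio of D. pseudoobscura to D. yakuba length was 0.175 (quartiles 0.0724 and 0.370). Both ends were the same in 39 pairs and 1 end in 380. Conversely, 147 of the 1187 overlapped D. yakuba intervals held 2 or more D. pseudoobscura intervals, with 6 as the highest number. That number was reached on 3L in chr3L:14942432-14961782, a D. yakuba interval of 73 fragments whose 6 D. pseudoobscura intervals covered 37.3% of its length. Its 19351 bp exceeded the longest interval called on the D. yakuba genome itself, of 17965 bp. D. pseudoobscura midpoints fell in the central 50% of the D. yakuba interval in 700 of 1309 cases (53.5%), against 50.0% after shifting, a difference within the spread of the shifts (two-sided circular permutation test, p = 0.11).

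The D. yakuba intervals that met D. pseudoobscura binding were the ones of many fragments. Of the 1062 D. yakuba intervals of 16 or more fragments 26.8% (285) were overlapped, against 9.55% after shifting. The share was 13.7% (405 of 2947) for 8 to 15 fragments, against 5.18% after shifting, and 5.72% (304 of 5319) for 4 to 7 fragments, against 3.34% (one-sided circular permutation test, p = 0.0001 for each of the 3 classes). For 3 fragments the share of 2.70% did not pass the same permutation test (p = 0.39; shifts 2.60%). At 2 fragments 2.05% were overlapped and at 1 fragment 0.936% (52 of 5554), with shift averages of 2.25% and 1.84%. Since the shifts do not keep fragment boundaries, no depletion is read from the lower share at 1 fragment. D. yakuba intervals with a D. pseudoobscura interval had a median of 2539 bp and 9 fragments, against 902 bp and 3 fragments for those without. Their mean log2 length differed by 1.35, where the shifts, which also land more often in long intervals, gave 0.88 on average and 1.10 at most (one-sided circular permutation test, p = 0.0001).

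**Figure D2:**
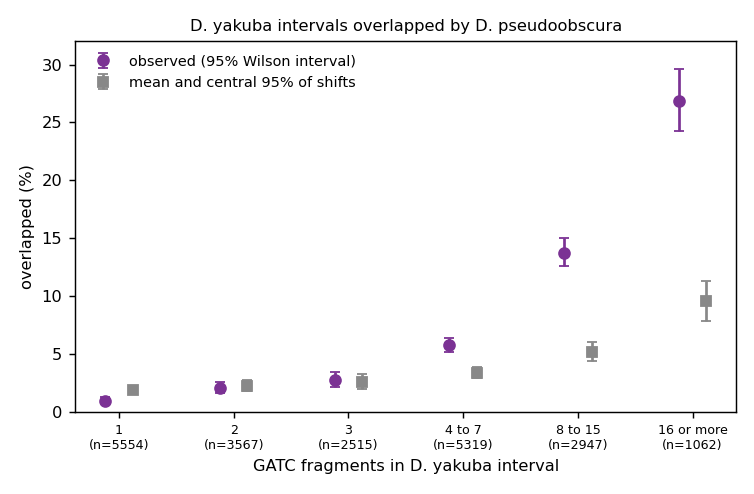
Percentage of D. yakuba intervals sharing at least 1 bp with a D. pseudoobscura interval, by number of GATC fragments in the D. yakuba interval. Circles are observed shares with 95% Wilson intervals and squares are the mean and central 95% of 10000 circular shifts; the observed share reaches 26.8% at 16 or more fragments, against 9.55% for the shifts.

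The excess was present on each of the 5 large chromosome arms. D. pseudoobscura intervals were overlapped in 73.4% of cases on 3R (284 of 387), 69.4% on 2R (297 of 428), 69.1% on 2L (295 of 427), 65.8% on 3L (308 of 468) and 62.2% on X (179 of 288). After shifting, the averages for these arms lay between 33.0% and 35.9% (one-sided circular permutation tests, adjusted p between 0.0002 and 0.00024 over 6 chromosomes). On the small chromosome 4, 17 of 22 intervals were overlapped (77.3%), against 65.0% after shifting, which was not distinguishable at this number (permutation test, adjusted p = 0.16). X stood below the 4 large arms that are autosomal in D. melanogaster, at 62.2% against 69.2%. The difference was -7.09 points, whereas the shifts averaged 1.92 points (two-sided circular permutation test, p = 0.0088; adjusted p = 0.011). X intervals were more often single fragments, at 63.2% against 55.7% on the autosome arms. Their median length was 518.5 bp on X and 461 bp on the autosome arms, and the shift averages depend on length. Within single fragments 51.6% were overlapped on X and 58.1% on the autosome arms, and within 2 or more fragments 80.2% on X and 83.2% on the autosome arms. Element D, matched to dm3 3L, is the arm XR of the X chromosome in D. pseudoobscura, although 3L is counted here with the autosome arms. On 3L 65.8% were overlapped, with 52.0% of single fragments and 84.4% of intervals of 2 or more fragments. No comparison of X with the other arms left 3L out. X was also the arm with the fewest translated intervals for each 100 called on the own genome, 51.6. The part of these values in the difference was not tested.

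**Figure D3:**
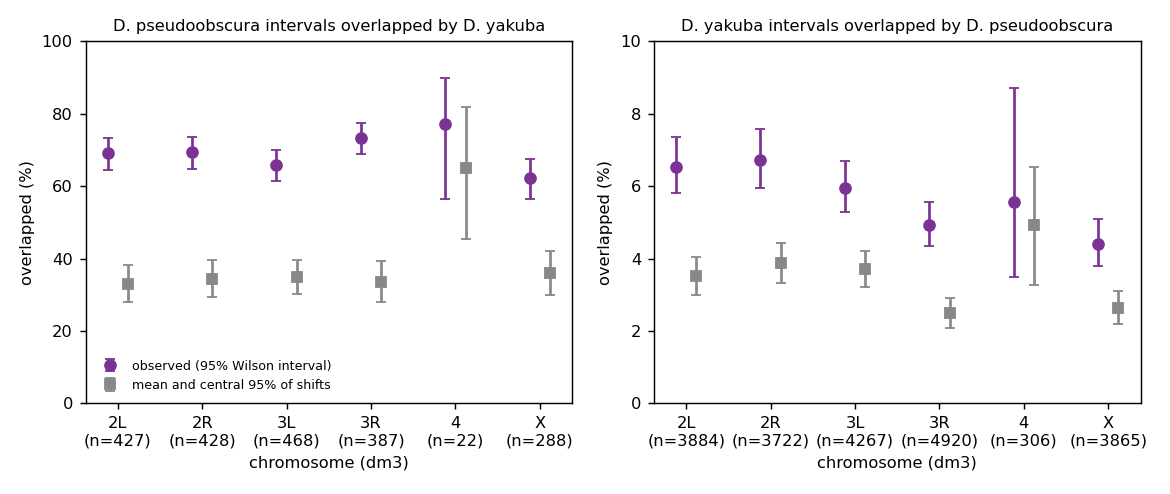
Percentage of intervals overlapped on each dm3 chromosome, for D. pseudoobscura intervals (left panel) and D. yakuba intervals (right panel, with an axis that ends at 10%). Circles are observed shares with 95% Wilson intervals and squares are the mean and central 95% of 10000 circular shifts; circles stand above squares on 2L, 2R, 3L, 3R and X, and the ranges meet on chromosome 4.

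The number of shared intervals differed between regions, and these counts were not set against shifts. The genome was divided into 1207 bins of 100000 bp, of which 798 held a D. pseudoobscura interval and 627 held a shared one. In 96 bins there were 4 or more shared intervals. The bin between 14.9 and 15.0 Mb of 3L held 13 D. pseudoobscura intervals, 12 of them shared, beside 12 of D. yakuba. It takes in chr3L:14942432-14961782, the D. yakuba interval named above that held 6 D. pseudoobscura intervals. On X, the bin between 0.3 and 0.4 Mb held 11 D. pseudoobscura intervals, all of them shared, beside 32 of D. yakuba. At dpp on 2L, the gene of a BMP ligand that patterns the dorsal-ventral axis and the imaginal discs, D. pseudoobscura had 3 intervals in the window examined and 2 were shared. The interval chr2L:2446992-2447964 (2 fragments) lay inside chr2L:2444052-2452978 of D. yakuba (41 fragments), and chr2L:2423633-2424029 (2 fragments) lay inside a D. yakuba interval of 11 fragments. The remaining one, chr2L:2455215-2455746 (5 fragments), was 102 bp from the nearest D. yakuba interval and was overlapped by neither D. melanogaster nor D. simulans Dichaete intervals. D. yakuba intervals covered 63.8% of that window. In the window at rdo on 2L, D. pseudoobscura had 0 intervals and D. yakuba had 5.

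The 640 D. pseudoobscura intervals without overlap lay close to D. yakuba intervals. Of these, 193 (30.2%) touched a D. yakuba interval end to end, 322 (50.3%) lay within 500 bp and 398 (62.2%) within 1000 bp. After shifting, 0.0452%, 19.3% and 32.5% of non-overlapping intervals did so. Touching needs a shared GATC boundary, which shifting breaks, so the touching intervals, which count in all 3 shares, have no fair counterpart in the shifts. Without the touching intervals, 205 of 447 (45.9%) lay within 1000 bp, against 32.5% after shifting and at most 38.9% (one-sided circular permutation test, p = 0.0001). Their median distance was 1152 bp, against 2058 bp on average after shifting and 1541 bp at the lowest. Counting touching intervals with the overlapped ones, a choice made after seeing the data, 1573 of 2020 (77.9%) met a D. yakuba interval. By fragment number, the share within 1000 bp was 61.4% at 1 fragment, 65.1% at 2, 61.0% at 3 and 70.8% at 4 or more (17 of 24), with no test.

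**Figure D4:**
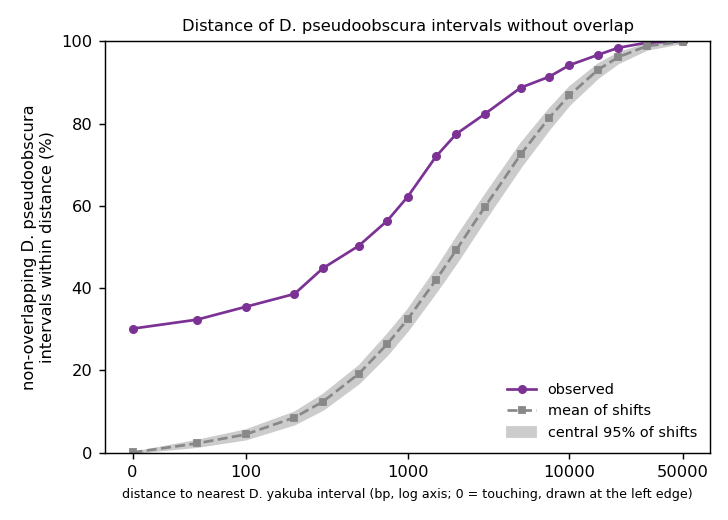
Cumulative percentage of the 640 non-overlapping D. pseudoobscura intervals that lie within a given distance of a D. yakuba interval (bp, log axis, with touching intervals drawn at the left edge as 0). Circles are observed values, squares the mean of the shifts and the band their central 95%; the observed curve starts at 30.2% and passes 62.2% at 1000 bp, where the shifts average 32.5%, with the 193 touching intervals counted at every distance.

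Of the 640 intervals, 37 (5.78%) lay more than 10000 bp from any D. yakuba interval. Within that distance lay 94.2%, touching intervals included, against 86.9% on average after shifting. The farthest, chr2L:1794482-1795262 (3 fragments), was 42141 bp away and was overlapped by a single-fragment Dichaete interval of D. melanogaster. The next 4, at 33145, 28713, 28084 and 28081 bp, held 1 or 2 fragments each and had no Dichaete interval of D. melanogaster or D. simulans over them.

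D. pseudoobscura intervals found in D. yakuba were mostly those that other Dichaete lists also held. Of the 748 D. pseudoobscura intervals overlapped by both D. melanogaster and D. simulans Dichaete intervals, 685 were overlapped in D. yakuba (91.6%), against 214 of the 630 with neither (34.0%). Over all 2020 intervals the observed share was 68.3% and the shift average was 34.6%. No shift average was taken for the 748 or the 630 alone. A group of 416 intervals was overlapped in none of the 3 species, and 83.4% of these were single fragments, against 38.5% of the 685 found in all. The 214 intervals overlapped by D. yakuba alone are those counted above among the 630. The share overlapped was 68.3% for D. yakuba, 63.8% for D. melanogaster and 42.1% for D. simulans. These lists fill different lengths, 30.9, 21.9 and 13.3 Mb, and each observed share set against its shift average gave a ratio of 1.97 for D. yakuba, 2.31 for D. melanogaster and 2.30 for D. simulans. In percentage points above the shift average the order was another, with 33.7 for D. yakuba, 36.2 for D. melanogaster and 23.8 for D. simulans. Neither set of differences was tested.

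**Figure D5:**
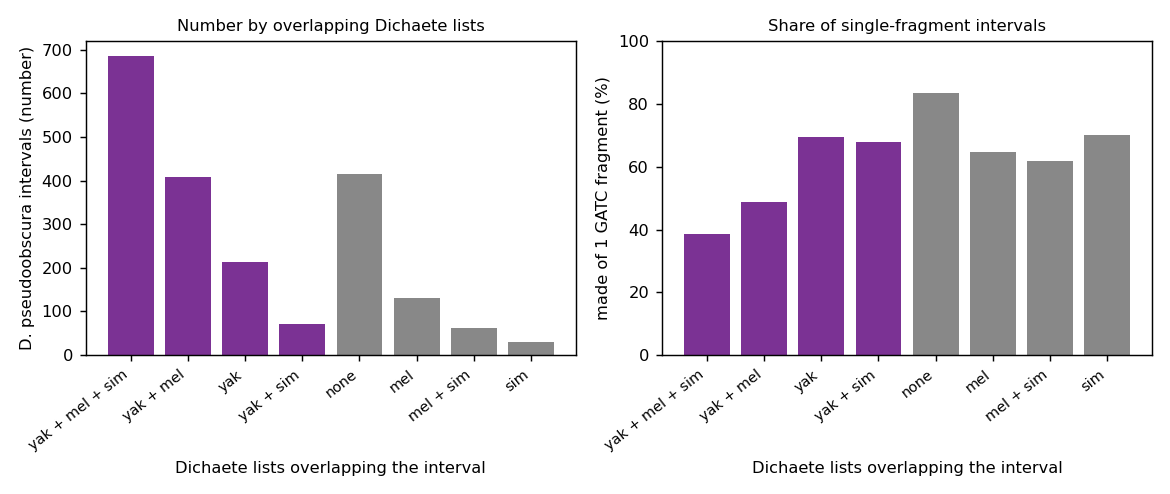
Number of D. pseudoobscura intervals (left panel) and percentage of them made of 1 GATC fragment (right panel), by which Dichaete lists of D. yakuba (yak), D. melanogaster (mel) and D. simulans (sim) overlap them. Purple bars are intervals overlapped in D. yakuba and grey bars are the rest; 685 intervals are found in all 3 lists and 416 in none, of which 83.4% are single fragments.

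SoxNeuro intervals, called with separate fusion libraries in D. melanogaster and D. simulans, followed the same division. D. melanogaster SoxNeuro intervals overlapped 79.3% of the D. pseudoobscura intervals that were shared with D. yakuba (1094 of 1380) and 29.7% of those that were not (190 of 640). For D. simulans SoxNeuro the shares were 68.4% (944 of 1380) and 19.1% (122 of 640). Over all 2020 intervals they were 63.6% for D. melanogaster SoxNeuro and 52.8% for D. simulans SoxNeuro. The SoxNeuro lists, of 21.3 and 15.0 Mb, were not set against shifts. The Dichaete lists of the same species, of 21.9 and 13.3 Mb, gave shift averages of 27.5% and 18.3% over all 2020 intervals. No shift average was taken for the 1380 or the 640 alone, so these values do not give a level for either group. The Dichaete and SoxNeuro lists of a species share their Dam-only libraries, while none of these libraries entered the D. pseudoobscura or D. yakuba list. These are descriptions of the intervals, with no test.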

How the data were processed

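DamID-seq was performed in whole embryos, with 3 Dichaete-Dam and 3 Dam-only libraries per species, grouped by their titles. Per the study's methods, the authors trimmed reads with cutadapt, mapped them with bowtie2 to dp3 (D. pseudoobscura) or droYak2 (D. yakuba), translated them to dm3 with LiftOver under a looser match setting for D. pseudoobscura, and counted reads on GATC fragments. The submitters' processing notes name SAMtools 0.1.19, bedtools 2.21.1 and DESeq2 1.6.1. Fragments enriched over Dam-only with an adjusted p under 0.05 in DESeq2 were joined across gaps of up to 100 bp, replicates pooled. The deposited lists give start, end and, in the fourth column, a count taken here as the number of fragments joined. The lists hold no read counts or p-values.

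Overlap (at least 1 bp), distance and circular shifts (10000, seeded, 1 distance per chromosome) were computed with Python 3.11.15 and NumPy 2.4.6; starts were made 1-based. Figures were drawn with Matplotlib 3.10.9. The functions were tested on made lists, including unrelated lists on shared fragments. Places named are those with the most fragments with and without overlap, the farthest ones, and the dpp and rdo windows. Intervals to compare and classes were chosen with earlier results of these data known. Alternatives were overlaps of 100 bp or 50%, joined neighbours, other length limits, local shifts and leaving out each chromosome. Lists at a stricter threshold and the own-genome D. simulans lists were not used.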

Additional observations from a re-analysis of the deposited data

How the results depend on the processing

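Of the recomputed values 72 kept their direction relative to the shifts and their side of the threshold, and 3 kept the direction only. The share of D. pseudoobscura intervals overlapped lay between 62.4% and 77.9% over 14 alternatives (the highest with touching intervals counted, added after seeing the data), and that of D. yakuba between 1.10% and 7.50% over 13, the lowest where 50% of the interval had to be shared (shifts 0.686%). Multi-fragment intervals exceeded single fragments by 17.3 to 32.9 points over 11 alternatives, and X minus autosomes lay between -13.7 and -6.53 points over 5. Leaving out chromosome 4, which is not among the autosome arms compared, could not change the X result but is counted. Local shifts could change only the values after shifting and not the observed ones. The comparison of long with short intervals lost its call in 3 settings: 11.3 points where 100 bp had to be shared (two-sided circular permutation test, p = 0.094), -3.97 points at 50% (p = 0.06) and 5.62 points within intervals of 2 or more fragments (p = 0.22; added likewise, as was the comparison within single fragments). The log2 length difference of D. yakuba intervals was -0.15 when 50% had to be shared, still above its shifts, since short intervals pass that limit more easily. No paired analysis was possible because each list pools its replicates, and for the same reason no replicate could be left out. Shifts do not keep GATC boundaries, a map of which was not used here.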
